A study of Mus musculus with 6 samples.

Results

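Signatures with an uninterrupted run of adenine were described across 6 mouse libraries made by massively parallel signature sequencing (MPSS). A signature here is the 20 bases that begin with the GATC of a DpnII site, and its bead count measures how often that cDNA end was cloned and read. A signature was taken when its count summed over all libraries reached 10 and its bases 5 to 20, counted from the G of GATC, held at least 6 consecutive A. Of 31075 signatures with such a total, 215 qualified. In 141 of them the run extended to base 20, so that it may enter the poly(A) tail, and in 74 it ended earlier (internal runs). Signatures with at least 6 consecutive T, chosen in the same way, served as the control and numbered 179, with 77 runs reaching base 20 and 102 internal ones.

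The libraries came from BLK.CL4, a fibroblast line derived from C57BL/6 mouse embryo (3 libraries), and from mouse liver (3 libraries), both labelled as C57BL6 total RNA with no treatment, age or sex given. Counts ranged from 1724799 to 2440849 per library, each summed over 4 sequencing runs, 2 of a type named T and 2 of a type named TH (always called type T and type TH here, so that a T run is a run of thymine). Whether the 3 libraries of a source represent separate cultures or animals is not stated, so the spread that the p-values rest on may be technical only. Signatures were not assigned to genes here, and neither source could be checked against the marker genes of its cell type. In such bulk RNA, fewer cells of a type and less RNA per cell cannot be told apart.

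Most messenger RNAs end in a poly(A) tail that is added after the transcript is cleaved, often behind a CA dinucleotide and downstream of an AATAAA hexamer. MPSS reads toward the tail from the DpnII site closest to it, so a site that lies within a few bases of the cleavage point gives a signature that runs into the tail. A stretch of A encoded in the genome gives the same letters. The deposited signatures cannot tell these sources apart where the run reaches base 20, whereas an internal run is followed by other bases and lies before the tail or was read with a miscalled base.

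The signatures on which the results turn are listed with their A run in capitals. The first 4 were the most abundant tail-reaching signatures of BLK.CL4, the next 3 internal or tail-reaching signatures counted in BLK.CL4 and in no liver library, the following 2 were called higher in liver, and the last was the only signature that consisted of A throughout after GATC.
Tail-reaching, 13 A: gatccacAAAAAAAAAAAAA
Tail-reaching, 10 A: gatctcgttcAAAAAAAAAA
Tail-reaching, 9 A: gatctgactgcAAAAAAAAA
Tail-reaching, 12 A: gatcaagcAAAAAAAAAAAA
Internal, 6 A: gatcctcAAAAAAgccaccg
Tail-reaching, 7 A: gatcaaatagcacAAAAAAA
Tail-reaching, 10 A: gatcaccaggAAAAAAAAAA
Tail-reaching, 6 A: gatctgcaaacttgAAAAAA
Internal, 6 A: gatccAAAAAActtgtggtg
Tail-reaching, 16 A: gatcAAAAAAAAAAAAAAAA

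Signatures with an A run made up a small part of all counts, and that part was about 3 times larger in the cell line. Their share of the beads was 0.300%, 0.277% and 0.330% in BLK.CL4, in replicate order, against 0.0878%, 0.0814% and 0.129% in liver. Every BLK.CL4 library lay above every liver library. The means were 0.303% ± 0.0266 and 0.0994% ± 0.0259 (SD, n = 3 each), a ratio of 3.04. In counts, these were 5666, 5692 and 7228 beads in BLK.CL4 and 1515, 1631 and 3151 beads in liver. No p-value is attached to these sums over the signatures, and with 3 against 3 libraries an exact permutation test could not go below 0.1.

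Tail-reaching and internal A runs were both lower in liver. Tail-reaching signatures took 0.238% ± 0.0228 of the beads in BLK.CL4 against 0.0807% ± 0.0249 in liver, and internal ones 0.0646% ± 0.0057 against 0.0187% ± 0.0036 (SD, n = 3 each). In neither class did the libraries of the groups overlap. The part of the A run counts that lay in tail-reaching signatures was much the same in both sources, at 78.6% ± 1.37 in BLK.CL4 and 80.6% ± 4.92 in liver, with overlapping values.

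The T runs of the control were also lower in liver as a whole, but their classes divided differently. They took 0.295% ± 0.0697 of the beads in BLK.CL4 against 0.157% ± 0.0344 in liver, again without overlap. T runs reaching base 20 stood at 0.155% ± 0.0285 and 0.0271% ± 0.0149, a ratio of 5.72. Internal T runs stood at 0.140% ± 0.0414 and 0.129% ± 0.0201, and there the libraries overlapped. Their 2 most abundant signatures in liver, gatcgcccTTTTTTgtatcc and gatcgcccTTTTTTgtatct, differ in the last base alone. These 2 held 48.7% of the internal T run beads of liver, while the 2 most abundant of BLK.CL4 held 20.0% there. Of the T run counts, 52.9% ± 3.13 in BLK.CL4 and 16.6% ± 5.48 in liver lay in runs that reached base 20. Per bead in a T run, BLK.CL4 replicates 1, 2 and 3 held 1.06, 0.750 and 1.43 beads in an A run and the liver replicates 0.644, 0.594 and 0.658. This order turned between the classes. For runs reaching base 20 the ratio was 1.57, 1.18 and 2.02 in BLK.CL4 and higher in liver, at 4.23, 3.06 and 2.50. For internal runs it was 0.505, 0.316 and 0.662 in BLK.CL4 and lower in liver, at 0.181, 0.128 and 0.129, and in neither class did the libraries overlap.

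Very abundant signatures, none of which holds an A run or a T run, took up more of the liver beads. Those at 1000 CPM (counts scaled to the same total in every library, as the unit's name gives it) or more in any library, 302 in all, took 42.5% ± 4.77 of the beads in BLK.CL4 against 68.1% ± 5.36 in liver. With these left out, an alternative chosen after seeing the data, A run signatures held 0.557%, 0.441% and 0.593% of the remaining BLK.CL4 counts and 0.314%, 0.273% and 0.339% of the remaining liver counts. The groups still did not overlap, and the ratio fell from 3.04 to 1.72. No A or T run signature was among the 302, so within a library this step scales all their shares by the same factor. The changes in ratio, also those of T runs below, follow from that factor and are not further results. Tail-reaching runs then had a ratio of 1.67 and internal ones of 1.90. T runs stood at 0.510% ± 0.0870 and 0.487% ± 0.0281 on this scale, with overlapping libraries. Among them, runs reaching base 20 remained lower in liver (0.0813% ± 0.0306 against 0.268% ± 0.0310), while internal T runs were higher there (0.406% ± 0.0229 against 0.242% ± 0.0560). Of the internal T run beads of liver, 48.7% lay in 2 signatures, and the order without these was not tested.

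Counted as distinct signatures in place of beads, the difference between the sources was small. Of the listed signatures with a total of at least 10, those with an A run made up 0.626%, 0.577% and 0.718% in BLK.CL4 replicates 1, 2 and 3, against 0.529%, 0.468% and 0.537% in liver replicates 1, 2 and 3. All BLK.CL4 values lay above the liver values, at a ratio of means of 1.25. These shares rest on 85, 107 and 104 A run signatures in BLK.CL4 and 36, 51 and 58 in liver. For T runs the shares were 0.575% ± 0.0598 and 0.490% ± 0.0686 (SD, n = 3 each), with overlapping libraries. An average A run signature listed in a library held 53.2 to 69.5 beads in BLK.CL4 and 32.0 to 54.3 in liver, against 108 to 149 and 182 to 253 for all signatures with a total of at least 10. The medians differed far less, at 25 to 29 beads for A runs and 24 to 28 for all signatures in BLK.CL4, and at 16 to 24.5 and 17 to 26 in liver.

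Few A run signatures were shared by the libraries. Of the 215, 117 (54.4%) were counted in BLK.CL4 only, 43 (20.0%) in liver only and 55 (25.6%) in both, against 46.8%, 19.0% and 34.2% of all 31075 signatures. A count in only 1 library was found for 110 of them (51.2%, against 40.4% of all), and 5 occurred in all 6 libraries (2.33%, against 7.36%). Their median total of 36 beads was close to that of all signatures (37). Of the internal runs, 44 of 74 came from 1 library, and of the tail-reaching runs 66 of 141. The files list fewer signatures than the labels state, and a 0 here is not evidence that a transcript was missing.

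Long runs were nearly always tail-reaching. Runs of 6 or 7 A were found in 128 signatures, 67 of which (52.3%) reached base 20. For runs of 8 or 9 A this held for 33 of 45 signatures (73.3%), and for runs of 10 or more for 41 of 42 (97.6%). A longer run has fewer places where it can end before base 20, so the T runs give the measure to compare with. T runs of 10 or more numbered 12, of which 10 reached base 20, and of 144 T runs of 6 or 7 bases 56 did (38.9%). The longest T run had 13 bases and the longest A run 16.

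Short and long A runs were both lower in liver, with no overlap between the libraries in any length class. Runs of 6 or 7 A took 0.123% ± 0.0162 of the beads in BLK.CL4 against 0.0488% ± 0.0157 in liver. Runs of 8 or 9 took 0.0485% ± 0.0034 against 0.0114% ± 0.0056, and runs of 10 or more 0.131% ± 0.0370 against 0.0393% ± 0.0051 (SD, n = 3 each). For T runs of 10 or more the BLK.CL4 libraries were uneven, at 0.0254%, 0.0773% and 0.00974%, and the signature gatctttgTTTTTTTTTTTT had 427, 1447 and 81 beads there.

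At the edge of the rule, 89 signatures had a longest run of exactly 6 A and took 0.0743% ± 0.0056 of the beads in BLK.CL4 against 0.0394% ± 0.0122 in liver, while 340 had a longest run of 5 A and took 0.691% ± 0.0623 against 0.404% ± 0.0734. A run of 6 or more A also occurred in 245 signatures whose total stayed under 10, with 865 beads among them, of which 77 had a total of 5 to 9, and 42 of the 215 had a total of 10 to 14.

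Cytosine was the usual base before an A run. Before the run stood C in 80 of 140 tail-reaching signatures (57.1%), G in 41 (29.3%) and T in 19 (13.6%). For internal runs that did not start at base 5 the shares were much the same, with C in 36 of 62 (58.1%). Shorter runs of 3, 4 and 5 A in all 31075 signatures followed a C in 42.2%, 40.7% and 44.6% of cases. T runs reaching base 20 followed a C in 25 of 77 cases (32.5%), and internal T runs that did not start at base 5 in 43 of 83 (51.8%). Over bases 5 to 20 without the run, tail-reaching A signatures had a GC content of 51.0% and internal ones of 50.1%. On the same measure the T runs had 45.8% and 48.4%. The 49.0% of all signatures covers bases 5 to 20 with nothing left out, so it is not a like measure.

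The polyadenylation hexamer was rare in A run signatures and in all signatures. AATAAA occurred in 2 of 215 (0.930%), against 143 of 31075 signatures (0.460%). Its variant ATTAAA occurred in 1 (0.465%), against 34 (0.109%). The forward strand was searched over all 20 bases. A hexamer that lies before GATC is not seen, so these counts do not tell whether a run enters the tail. In all 3 the hexamer shared bases with the run. The most abundant of them was gatcccaaatAAAAAAAAAA, at 9, 176 and 9 beads in the BLK.CL4 libraries against 0 in every liver library.

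The levels of single signatures were compared with edgeR's quasi-likelihood test over all 9115 signatures with at least 10 CPM in 2 or more libraries, with Benjamini-Hochberg adjustment over all of them. Of the 215 A run signatures 53 passed this filter. The other 162 had totals of 10 to 195 beads, with a median of 26, and 110 of them were counted in only 1 library. Among the 53 tested, 19 passed an adjusted p of 0.05 (35.8%, against 30.0% of all tested signatures). Toward BLK.CL4 there were 12 (22.6%, against 15.1% of all tested) and toward liver 7 (13.2%, against 14.9%), so the shares called lay near those of all signatures in liver and somewhat above them in BLK.CL4. With DESeq2 the members' share, 22 of 53 (41.5%), was close to that of all tested signatures (41.3%). The median log2 fold change (liver over BLK.CL4) was -0.44 over the 53 and -0.60 over all tested signatures. T runs gave 13 calls among 46 tested, 6 toward BLK.CL4 and 7 toward liver.

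These numbers of calls depended on single libraries. Without BLK.CL4 replicate 1, 2 or 3 the calls fell to 12, 12 and 10, and without liver replicate 2 or 3 to 12 and 8, with fewer A run signatures tested each time (39 to 49) and a background that also fell, to between 22.1% and 28.8%. Calls toward liver were 2, 2 and 1 without BLK.CL4 replicates 1, 2 and 3 (4.65%, 4.76% and 2.56%). The shares of all tested signatures called toward liver were then 11.6%, 13.3% and 12.9%. Without liver replicate 1 there were 5 toward liver (10.4%, against 14.4% of all) and without liver replicate 2 there were 4 (8.16%, against 11.7%). Without liver replicate 3 edgeR called none of the 45 tested toward liver, against 11.1% of all. In that direction 2 had an unadjusted p under 0.05. DESeq2 was not run without that library. Calls toward BLK.CL4 fell from 12 to between 8 and 10 when each library was left out in turn. These were 16.3% to 23.8% of the A run signatures tested, against 10.3% to 15.9% of all tested signatures. By direction the calls also moved with scaling, to 16 toward BLK.CL4 and 2 toward liver when library totals replaced the TMM factors, which correct for differences in composition. The calls over all tested signatures then moved the same way, to 25.05% toward BLK.CL4 and 11.5% toward liver. With no filter on low counts, 10 of 215 were called toward BLK.CL4 and 13 toward liver (4.65% and 6.05%, against 2.58% and 5.44% of all signatures), so which direction had more calls depended on the filter. Of the 19, 4 were called in all 6 of the fits that left out a library, 14 with library totals and 1 in every setting. The matching shares over all called signatures are not given here.

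Of the 12 signatures called toward BLK.CL4, 11 were tail-reaching, as were 5 of the 7 called toward liver and 39 of the 53 tested. No bead was found in any liver library for 11 of the 12, nor in any BLK.CL4 library for 5 of the 7. The matching shares over all called signatures are not given here, so these counts have no background. The largest fitted difference was that of gatctgactgcAAAAAAAAA, with 511, 271 and 157 beads in the BLK.CL4 libraries against 0 in each liver library. Its level was 158 ± 102 CPM, at least 106-fold higher than the 1.49 CPM that 3 beads per liver library amount to. This bound is set on library totals, whereas the test used TMM factors, and with these the bound was 36.7-fold (edgeR adjusted p = 0.00779). Like the bounds that follow, it covers counting error only. The files list fewer signatures than the labels state, which may affect a 0. The call was lost in type TH alone (adjusted p = 0.0805) and held under the other 12 alternatives. The most even of them was the internal gatcctcAAAAAAgccaccg, at 126, 87.3 and 138 CPM in BLK.CL4 and 0 in liver, at least 78.8-fold higher, or 27.2-fold with TMM factors (adjusted p = 0.00846). It passed under all 12 alternatives in which it was tested, but 704 of its 720 beads came from type T.

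Other calls of this kind rested on uneven libraries. Counts of gatcaagcAAAAAAAAAAAA were 176, 14 and 710 in BLK.CL4, in replicate order, against 0 in liver, with a mean of 141 ± 164 CPM, at least 95.1-fold higher, or 32.5-fold with TMM factors (adjusted p = 0.0271). Without BLK.CL4 replicate 1 or 3 it no longer met the filter. Counts of gatcaccaggAAAAAAAAAA were 405, 5 and 288 and again 0 in liver, at least 78.0-fold higher on average, or 26.5-fold with TMM factors (adjusted p = 0.0345). Its call was lost without liver replicate 2 or 3 and in type TH alone (adjusted p up to 0.0690), and it was not tested without BLK.CL4 replicate 1 or 3. By contrast, gatcaaatagcacAAAAAAA was present in all 3 BLK.CL4 libraries at 98.9, 126 and 57.6 CPM and in no liver library (adjusted p = 0.0124). The single signature of the 12 with liver beads was gatcattccgAAAAAAAAAA, which had 247, 389 and 181 beads in BLK.CL4 and 0, 5 and 0 in liver (adjusted p = 0.0457).

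In 3 of the 7 signatures called toward liver the libraries of the groups did not overlap, against all 12 called toward BLK.CL4. The share without overlap over all called signatures is not given here. Of the 7, the highest in liver was gatctgcaaacttgAAAAAA. It had 79, 88 and 212 beads in liver replicates 1, 2 and 3 and 60, 50 and 35 in BLK.CL4. In liver its level was 58.9 ± 24.3 CPM, which was 2.45-fold that of BLK.CL4 at 24.0 ± 7.88 CPM (adjusted p = 0.0459, log2 fold change in the fit 2.56, SE 0.80). All of its 524 beads came from type T, and the call was lost under 8 of 12 alternatives, among them library totals and the omission of any BLK.CL4 library or of liver replicate 2 or 3 (adjusted p 5.80e-05 to 0.308).

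The internal runs with the highest mean in liver were absent from 1 or more liver libraries or uneven. The signature gatccAAAAAActtgtggtg had 112, 6 and 102 beads in liver replicates 1, 2 and 3 and none in BLK.CL4, at least 24.8-fold higher, or 64.4-fold with TMM factors (adjusted p = 0.0171), and lost its call in type TH alone (adjusted p = 0.0570). It was not tested without liver replicate 1 or 3. Counts of gatcccacAAAAAAgactcc were 57, 0 and 88 in liver and 0 in BLK.CL4 (adjusted p = 0.0459), and its call was lost with library totals, in type TH and without any 1 of the BLK.CL4 libraries. It was not tested without liver replicate 1 or 3. Of gatccctgatgcAAAAAAga, 118 of 127 beads came from liver replicate 3, and all 69 beads of gatccgccAAAAAAAAtgca came from liver replicate 1, so neither was tested.

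The 2 most abundant A run signatures were counted in both sources and did not pass. Counts of gatctcgttcAAAAAAAAAA were 487, 250 and 1064 in BLK.CL4, in replicate order, against 58, 197 and 511 in liver, or 289 ± 184 and 114 ± 88.9 CPM, with overlapping libraries (adjusted p = 0.952, log2 fold change in the fit 0.09, SE 0.80, with a sign that turned under library totals). The longer run of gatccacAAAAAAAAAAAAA had 708, 419 and 716 beads in BLK.CL4 and 12, 52 and 194 in liver. Its mean of 302 ± 87.9 CPM in BLK.CL4 was 8.06 times the 37.5 ± 37.6 CPM of liver, without overlap, yet it did not pass with TMM factors (adjusted p = 0.196, log2 fold change in the fit -1.60, SE 0.86). It did with library totals (adjusted p = 0.0392). Together these 2 signatures held 19.6% of the A run beads of BLK.CL4 and 18.8% of those of all libraries, where 14 signatures accounted for 50%.

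Internal signatures of BLK.CL4 with liver beads did not pass either. These were gatcccAAAAAAtctgtgcc, with 230, 143 and 330 beads in BLK.CL4 and 43, 0 and 10 in liver (adjusted p = 0.325), and gatcacAAAAAAAgcattaa, with 61, 143 and 38 and 11, 9 and 0 beads (adjusted p = 0.452). In both the libraries of the groups lay apart. The signature gatccaggagttcAAAAAAg had 125, 51 and 0 beads in BLK.CL4 and none in liver (adjusted p = 0.0979), and passed with library totals (adjusted p = 0.0485) and without BLK.CL4 replicate 3 (adjusted p = 0.0478).

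The signatures with the longest runs differed in where they were counted. All 16 bases after GATC were A in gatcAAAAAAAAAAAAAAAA, of whose 195 beads 188 came from liver replicate 1 and 7 from BLK.CL4 replicate 3, and which was not tested. The run of 15 A in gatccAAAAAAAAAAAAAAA had 13, 43 and 82 beads in BLK.CL4 and none in liver (adjusted p = 0.0472), a call lost without any 1 of the liver libraries and not tested without BLK.CL4 replicate 2 or 3. The run of 14 A in gatcccAAAAAAAAAAAAAA had 303, 211 and 102 beads in BLK.CL4 and 143, 16 and 0 in liver, with overlap (adjusted p = 0.925).

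Among T runs, the most abundant signatures of each source did pass. The tail-side run of gatctccgatttccTTTTTT reached 340 ± 76.3 CPM in BLK.CL4 against 5.33 ± 4.98 in liver (adjusted p = 0.0351, log2 fold change in the fit -4.30, SE 1.19). The internal run of gatcgcccTTTTTTgtatcc reached 94.1 ± 43.8 CPM in BLK.CL4 against 365 ± 203 in liver (adjusted p = 0.0119, log2 fold change in the fit 3.36, SE 0.70).

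Several tail-reaching A signatures came in sets that shared their bases before the run and differed in where the run began. Of the 116 with at least 6 bases between GATC and the run, 23 formed 12 pairs in which the bases before the shorter stem's run also opened the longer stem. No such pair was found among the 69 T runs that reached base 20 with the same length before the run. The pairs were looked for after the data were seen. In 9 of the 12 pairs the signatures differed at only 1 base, so a tail added a few bases further along and a miscalled base cannot be told apart. The 3 pairs whose rarer form had the most beads (333, 117 and 111) are printed with the run in capitals to show the shift of its start.
Run from base 14: gatctgcaaacttAAAAAAA
Run from base 15: gatctgcaaacttgAAAAAA
Run from base 12: gatcaaatagcAAAAAAAAA
Run from base 14: gatcaaatagcacAAAAAAA
Run from base 14: gatctcaaaattcAAAAAAA
Run from base 15: gatctcaaaattccAAAAAA

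In the first pair the run from base 14 had 81, 34 and 127 beads in BLK.CL4, in replicate order, against 0, 0 and 91 in liver, while the run from base 15, called higher in liver, had 60, 50 and 35 and 79, 88 and 212. The earlier run start was thus the more common form in BLK.CL4 replicates 1 and 3 and the less common one in every liver library; the difference between the forms was not tested. Both forms of the second pair were limited to BLK.CL4, with 9, 45 and 57 beads from base 12 and 187, 259 and 126 from base 14, and both were called (adjusted p = 0.0483 and 0.0124). A more abundant signature outside the A run set, gatcaaatagcacagaaaaa, differs from the form from base 14 at base 15 alone. It had 674, 1259 and 534 beads in BLK.CL4 and 0 in each liver library. Its total of 2467 beads was less than 10 times the 572 of that form. Whether the form from base 14 comes from this signature by a miscalled base was not tested. In the third pair, the run from base 14 had 22, 36 and 0 beads in BLK.CL4 and 0, 0 and 59 in liver, and the run from base 15 had 27, 10 and 120 and 82, 18 and 0. BLK.CL4 replicate 3 and liver replicates 1 and 2 thus held only the later start, and liver replicate 3 only the earlier.

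A shared stem also tied some A run signatures to abundant signatures that hold no run. Of 79 stems of at least 8 bases after GATC, 45 opened at least 1 further signature with a total of at least 10, against 32 of 65 stems of T runs. Among stems of exactly 10 bases the order turned, at 19 of 38 for A runs and 21 of 38 for T runs. The 2 stems with the most signatures, 19 and 16, belonged to very abundant signatures whose A run forms were rare.
Abundant form: gatcagacacttcaaaatct
Run of 7 A: gatcagacacttcAAAAAAA
Abundant form: gatcaaactttaccattatt
Run of 6 A: gatcaaactttaccAAAAAA

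The abundant form of the first stem had 10656, 11195 and 15908 beads in liver replicates 1, 2 and 3 and its form with 7 A had 27, all in liver replicate 3. That of the second had 174106 beads over all libraries and its A run form 12, all in liver replicate 1. Over all 215 A run signatures, 19 (8.84%) had a neighbour at 1 mismatch with at least 10 times their total, against 11.3% of all signatures and 4.47% of T runs. These 19 held 1223 beads, or 4.92% of the A run total, and in 13 cases the neighbour had an A run itself. The neighbour of 8 of them was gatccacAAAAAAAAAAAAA, with 2101 beads. A further case was gatccaggagttcAAAAAAg, with 176 beads, whose neighbour gatccaggagttcaaagaag had 16133 (substitution G17A, positions counted from the first base of the signature). Whether such signatures come from miscalled bases was not tested.

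Some A run signatures differed from another in the last base alone. The first 19 bases were shared with another signature of at least 10 beads by 11 of 215 A run signatures (5.12%), against 57 of 179 T run signatures (31.8%) and 19.4% of all. The largest total was that of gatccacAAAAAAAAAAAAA, with 2101 beads, whose form gatccacAAAAAAAAAAAAg had 140, all of type T. The only set of 3 forms was that of the internal run of gatcctcAAAAAAgccaccg, whose forms ending in g, c and a had 720, 121 and 101 beads. Of these, 704, 0 and 18 came from type T and 16, 121 and 83 from type TH, so that in this set the last base went with the run type. All 3 forms were absent from the liver libraries, and those ending in c and a also from BLK.CL4 replicate 1. Such a split also occurred among T runs. There gatcgcccTTTTTTgtatcc had 2577 beads of type T and 186 of type TH, and gatcgcccTTTTTTgtatct had 11 and 2399. Of the 74 internal A runs, 25 would reach base 20 with 1 base changed to A, and these held 24.9% of the internal A run beads. The same held for 25 of the 102 internal T runs, with 17.5% of their beads.

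Some A run signatures were seen in sequencing runs of 1 type only. No bead of type T was found for 46 of the 215 (21.4%) and none of type TH for 48 (22.3%), against 28.0% and 23.3% of all signatures. Among T runs reaching base 20, 33 of 77 (42.9%) lacked any bead of type T. By run type, the share of A runs in BLK.CL4 was 0.320% ± 0.0072 (type T) and 0.284% ± 0.0484 (type TH), and in liver 0.107% ± 0.0349 and 0.0932% ± 0.0302 (SD, n = 3 each). Single sequencing runs ranged from 0.233% to 0.351% in BLK.CL4 and from 0.0400% to 0.159% in liver, so that no liver value reached the lowest of the cell line. The T run control stood at 0.249% (type T) and 0.339% (type TH) in BLK.CL4, against 0.188% and 0.131% in liver.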

How the data were processed

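The values are raw bead counts per signature and run as deposited by the authors, per the file headers, and were used without the conversion that the labels mention. The files hold fewer beads and signatures per run than the labels state, and the base caller and filters are not given in the sources used here. Counts of 4 runs were summed per library, and a signature missing from a file counted as 0. Shares are percentages of all beads, or of listed signatures with a total of at least 10, given as mean ± SD over 3 libraries. Levels are CPM of the library total. For single signatures edgeR 4.0.16 in R 4.3.3 was used (glmQLFit and glmQLFTest, TMM factors of 0.475 to 1.72, group as the only term, prior count 5, adjusted p threshold 0.05, at least 10 CPM in 2 libraries). SE values were taken as the fitted log2 fold change over the square root of F. Bounds set 3 beads per library against a group at 0 and cover counting error only, since beads carry amplified molecules. DESeq2 1.42.0 was an alternative. Tables were made with Python 3.11.15 and pandas 2.3.3.

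The members, lists and tests were chosen with earlier results of these data known. Signatures were named by rule: in each group the 4 tail-reaching and 4 internal A runs of highest mean CPM, in each direction the 4 largest fold changes that passed without overlap (3 toward liver), the 3 longest runs, the highest T run per group and the 2 stems shared most. The nested pairs, the last-base set, the neighbour pairs, the long T run, the 2 members called toward BLK.CL4 without such a rank and the hexamer signature were named after their values were seen. 1 further signature under the naming rule is not reported here.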

Additional observations from a re-analysis of the deposited data

How the results depend on the processing

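The labels give no replicate numbers, and no label says that the letters x, N and P in the library codes pair libraries. Deviations from the group means correlated at 0.00707, 0.148 and 0.158 (Pearson, across 9115 signatures) between libraries of the same letter, and the x library of BLK.CL4 correlated best with another letter. The letter as a replicate block, tried after seeing the data and not counted among the alternatives elsewhere, gave 11 calls (4 toward liver, 7 toward BLK.CL4; 20.8% of those tested, against 21.0% of all), all among the 19 of the fit without it. The difference in the share of counts with an A run (liver minus BLK.CL4, in percentage points) was -0.203 and kept its sign under all 16 alternatives, at -0.218 to -0.189 when each library was omitted. It moved by more than the spread between libraries with runs of at least 5 A (-0.490) or 8 A (-0.128), a total of at least 100 (-0.167), internal runs only (-0.0458) and without the most abundant A run signature of each source (-0.159). The difference in the share of signatures was -0.129 (-0.161 to -0.0901 with libraries left out) and moved less than that spread under all 15 alternatives. For T runs, whose alternatives were chosen after seeing the data, the share of counts differed by -0.138 (-0.170 to -0.101), by -0.0376 with at least 8 T, -0.0603 from sequencing type T alone, -0.208 from type TH alone, -0.0108 for internal runs and -0.0228 without signatures of 1000 CPM or more. Their share of signatures differed by -0.0849 (-0.119 to -0.0453), and by -0.0094 with a total of at least 100.

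Calls among A run signatures numbered 19, of which 7 were higher in liver and 12 in BLK.CL4. They were 6 of 12 tested (2 and 4) at 25 CPM in 3 libraries, where 38.1% of all tested were called. From type T they were 7 of 47 (1 and 6, against 17.6% of all) and from type TH 6 of 40 (2 and 4, against 17.3%). For runs of at least 8 A they were 8 of 21 tested (1 and 7), against 30.0% of all tested. Calls toward liver were 2 with library totals and 13 with no filter (10 toward BLK.CL4). With libraries left out in turn, calls ranged from 8 to 14, from 0 to 5 toward liver and from 8 to 10 toward BLK.CL4. Over all tested signatures the shares called were then 22.1% to 28.8%, 11.1% to 14.4% toward liver and 10.3% to 15.9% toward BLK.CL4. DESeq2 called 22, including all 19, and gave 1 tested member no adjusted p. An unadjusted edgeR p under 0.05 was found for 27 of 53, but the share of all tested signatures at that limit is not given here. Signs turned for signatures that never passed. For gatctcgttcAAAAAAAAAA, at 0.09, the log2 fold change was -1.32 with library totals, -0.021 with DESeq2, -0.079 with no filter, -0.64 in type T and -0.016, -0.28 and -0.44 without BLK.CL4 replicate 1, BLK.CL4 replicate 2 and liver replicate 3, in a range of -0.44 to 0.67 over single libraries omitted. For gatcccAAAAAAAAAAAAAA, at -0.26, it was 0.16 without BLK.CL4 replicate 1, and 0.047 and 0.13 without liver replicates 2 and 3, in a range of -2.71 to 0.16. What caused such shifts was not tested. Depth limits levels below 1.23 to 1.74 CPM, the level of 3 beads.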

Other observations

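Runs of the other bases were rarer. At least 6 consecutive C occurred in 83 signatures with a total of 10 or more and at least 6 consecutive G in 44, of which 27 and 15 reached base 20. C runs took 0.257% ± 0.0122 of the beads in BLK.CL4 against 0.185% ± 0.0819 in liver, with overlapping libraries, and G runs 0.0894% ± 0.0105 against 0.0296% ± 0.0067 (SD, n = 3 each), without overlap. The ratio between the sources for G runs, 3.02, was thus close to that for A runs before very abundant signatures were left out.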
